A study of Mus musculus with 12 samples.

Results

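Cohesin is the ring-shaped protein complex that holds sister chromatids together, and its genes come in a form used in dividing body cells and a form made for meiosis. The 9 subunit genes described here are the mitotic set (Smc1a, Smc3, Rad21, Stag1 and Stag2) and the meiotic set (Smc1b, Rec8, Rad21l and Stag3). They are 9 of 23102 genes measured, and rest on 218 of the 233753 probesets that the platform table gives to 1 gene symbol. A gene was taken as a member when its symbol, or an older synonym of it, was on this list. The members were chosen by their family, with the measured KHR minus KR differences of these same 12 arrays already known. Those differences are therefore a description and carry no test.

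The data are log2 intensities of total RNA from 12 oral tumours on Affymetrix Mouse Gene 2.0 ST arrays, 1 array per tumour, from tamoxifen-injected F1 mice of C57BL/6 and FVB. In 6 of them, labelled KR, the tumour expressed RAS. In the other 6, labelled KHR, RAS and a transgene called iHPV were both expressed, and a further label names HPV E6. The labels do not say which promoter or cell type drove either gene or how old the mice were, nor whether each tumour is from a separate mouse. P-values therefore measure the spread between these samples.

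The ring is built from a pair of SMC proteins, closed by a kleisin, and bound by a STAG protein. SMC3 is part of both forms, while SMC1B, REC8 or RAD21L, and STAG3 take the places of SMC1A, RAD21, and STAG1 or STAG2 in germ cells. In body cells, where the meiotic genes are normally silent, E2F6 and its partners in the repressor complex PRC1.6 are known to keep Smc1b and Stag3 off. The comparison of KHR with KR asks which subunit genes differ when the viral transgene is added to RAS.

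Among all genes, 625 were higher and 238 lower in KHR tumours by limma at an adjusted p under 0.05 (Benjamini-Hochberg), which is 2.71% and 1.03% of those tested. Higher genes made up 72.4% of these calls, and 56.8% of those made after the arrays were quantile normalized. Of the cohesin subunits, 2 of 9 passed that threshold, both higher and both meiotic, namely Stag3 and Smc1b. The same 2 genes had all KHR arrays above all KR arrays, a pattern found in 1.83% of all genes. No member had all KHR arrays below, where 0.840% of all genes did. Since the choice of members used this contrast, nothing is read from these counts.

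Stag3 encodes the STAG subunit of meiotic cohesin and had the largest difference of the 23102 genes. Its gene value, the median over its 33 probesets, ran in KR tumours from 4.24 through a median of 4.31 to 4.58. In KHR tumours it ran from 8.52 through a median of 8.65 to 9.09. The groups were far apart, and the gap between the highest KR array and the lowest KHR array was 3.95. The means were 4.35 ± 0.12 and 8.72 ± 0.23 (SD, n = 6 each), a log2 difference of 4.37 ± 0.11 (SE), or 20.7-fold. The KR mean was under the median of all genes, 4.98, where no call of detection is at hand, so the fold is not exact.

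**Figure D1:**
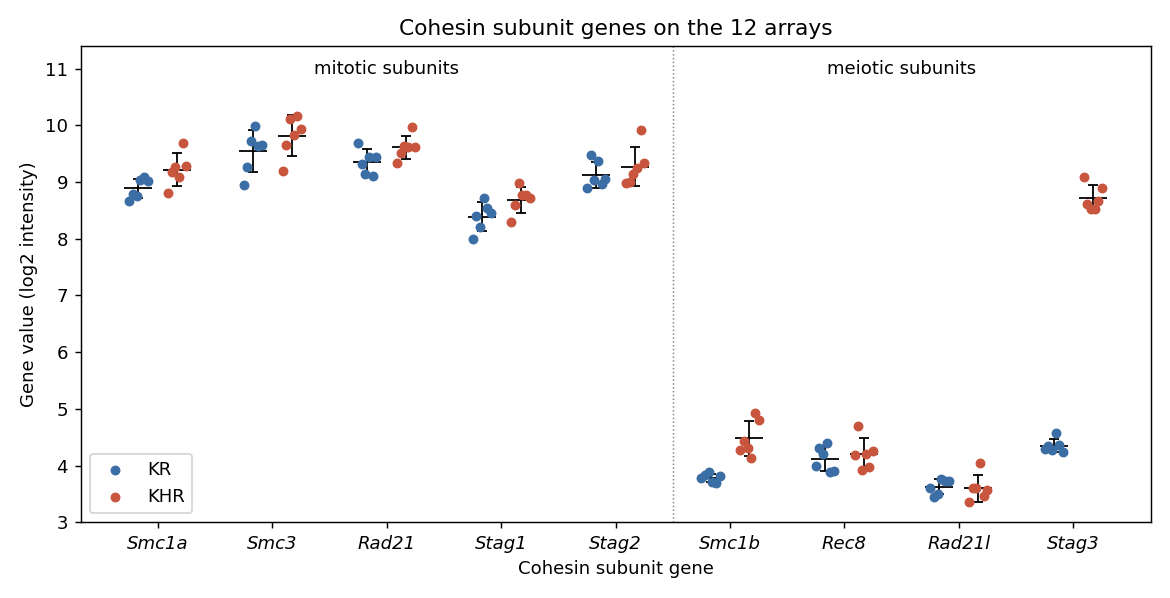
Gene value (log2 intensity, vertical axis) of the 9 cohesin subunit genes on each array, KR in blue and KHR in red, with the mean and SD of 6 arrays in black. Stag3 is 4.35 in KR and 8.72 in KHR tumours, Smc1b is the only other gene whose groups do not overlap, and the mitotic genes overlap throughout.

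Smc1b encodes the meiotic partner of SMC3. Its KR values ran from 3.69 through a median of 3.79 to 3.88, and its KHR values from 4.14 through 4.38 to 4.92. No array of one group reached the range of the other, but the gap was narrow, at 0.26. The means were 3.78 ± 0.07 and 4.48 ± 0.31 (SD, n = 6 each), with a difference of 0.70 ± 0.13 (SE). With median polish over the probesets the difference was 0.39. Without dim probesets it was 0.90, and there Smc1b did not pass the threshold. Both means were under the median of all genes, and the 2 highest arrays were KHR 5 at 4.92 and KHR 6 at 4.80.

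Rec8 and Rad21l encode the meiotic kleisins, of which REC8 is cut by separase when meiotic chromosomes part. Rec8 ran from 3.89 through 4.11 to 4.40 in KR tumours and from 3.92 through 4.20 to 4.70 in KHR tumours. Its difference was 0.09 ± 0.14 (SE). Rad21l ran from 3.45 through 3.66 to 3.77 in KR tumours and from 3.35 through 3.58 to 4.05 in KHR tumours. Its difference was -0.02 ± 0.11 (SE). The groups overlapped for both kleisins. Within the meiotic set the differences ran from -0.02 for Rad21l to 4.37 for Stag3.

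The promoter sequences of Stag3 and Smc1b are shown because the factor known to silence them, E2F6, reads short DNA words, and that of Rec8 is shown as a meiotic gene whose level overlapped between the groups. Each run goes 5′ to 3′ from 190 bases before the start of the gene to 10 bases after it, from RefSeq on the build GRCm38.p6, and capitals mark TCCCGC, the core of the E2F site, and CACGTG, the E-box read by MGA and MAX. Stag3 lies at chr5:138280319-138280518 on the plus strand, Smc1b at chr15:85131948-85132147 on the minus strand and Rec8 at chr14:55617976-55618175 on the plus strand.
Stag3: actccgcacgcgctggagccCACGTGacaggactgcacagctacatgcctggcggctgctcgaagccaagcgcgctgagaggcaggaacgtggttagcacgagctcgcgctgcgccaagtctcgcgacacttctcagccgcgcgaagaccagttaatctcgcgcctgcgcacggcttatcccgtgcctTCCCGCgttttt
Smc1b: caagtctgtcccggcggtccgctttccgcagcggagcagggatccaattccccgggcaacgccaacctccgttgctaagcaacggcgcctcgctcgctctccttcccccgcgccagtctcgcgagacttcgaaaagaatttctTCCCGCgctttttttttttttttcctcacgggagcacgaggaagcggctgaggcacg
Rec8: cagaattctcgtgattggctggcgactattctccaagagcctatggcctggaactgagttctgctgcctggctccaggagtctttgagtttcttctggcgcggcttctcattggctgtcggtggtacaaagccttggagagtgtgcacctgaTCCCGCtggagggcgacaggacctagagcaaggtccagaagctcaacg

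The first letter of TCCCGC stood 2 bases before the start of Stag3, 47 before that of Smc1b and 38 before that of Rec8. On either strand of the full window, 250 bases before to 50 after the start, TCCCGC was found in 6 of the 7 members that the table holds, all but Rad21l, and in 6562 of all 32851 promoter windows. Rad21 and Stag2 have no entry. CACGTG was found in Stag3 only, 170 bases before the start, and in 7.15% of all windows. The E2F sites TTTCGCGC and TTTGGCGC (0.323% and 0.514% of all windows) were in no member, and TTTGAA, the CHR element of cell cycle genes (17.9%), was in Rad21l only. Searched after the sequences had been seen, the longer TTCCCGCG, which holds TCCCGC, was in 4 of the 7, against 1.01% of all windows. The 4 were Stag3, Smc1b, Smc1a and Stag1. Nothing is read from this count, since the word was picked from sequences already seen. The longest run that Stag3 and Smc1b share, AGTCTCGCGA, was picked for being shared, so its presence in both was fixed by the choice. It was in 0.204% of all windows and in no other of the 7. The printed stretches held 64.0%, 60.5% and 56.0% G and C for Stag3, Smc1b and Rec8. A match of letters shows no binding, and its part in any difference was not tested.

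Read probeset by probeset, the difference of Stag3 was carried by most of its probesets. All KHR arrays lay above all KR arrays at 29 of its 33 probesets, against 1.09% of all probesets with 1 symbol, and none of the 218 member probesets showed the reverse, against 0.694% of all. At 31 of the 33 the difference was at least 1, and it reached 5.88 at the highest. The first 2 in the order of probeset numbers stood apart. One was at 3.21 ± 0.24 in KR tumours and at 3.24 ± 0.30 in KHR ones, and the next at 4.77 ± 0.34 and 4.57 ± 1.00 (SD, n = 6 each). The remaining 2 with overlapping groups, at places 24 and 32, differed by 1.71 and 1.88. What part of the transcript each probeset reads is not given in the tables used here.

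Smc1b differed at a minority of its probesets. Of 20, 14 had a higher mean in KHR tumours and 6 a lower one, and at 2 the groups did not overlap. One of these 2, at place 10, went from 3.51 ± 0.42 in KR to 6.44 ± 0.53 in KHR tumours (SD, n = 6 each), and the other, at place 15, from 3.89 ± 0.10 to 5.63 ± 0.87. The other 18 overlapped, with differences from -0.87 to 1.32. The value of 0.70 for the gene is thus a median over probesets that did not move alike. Of the probesets of Rec8, 12 of 20 were higher in KHR, and of Rad21l 5 of 12, none without overlap. Over all probesets with 1 symbol, 51.7% were higher in KHR.

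**Figure D2:**
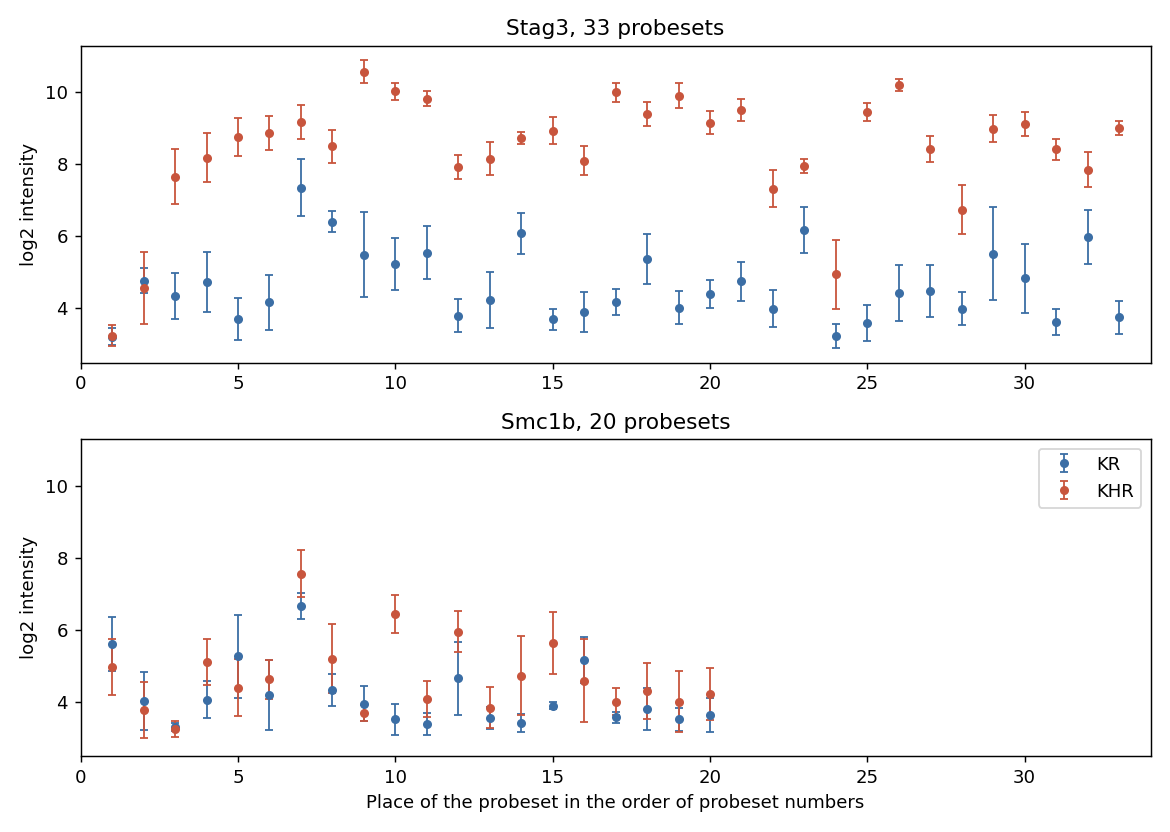
Mean and SD (n = 6) of log2 intensity at each probeset of Stag3 (top) and Smc1b (bottom), KR in blue and KHR in red, in the order of probeset numbers, which need not be the order along the gene. The groups overlap at the first 2 of 33 Stag3 probesets and are apart at 29 others, while 2 of 20 Smc1b probesets are apart.

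The mitotic subunits were a little higher in KHR tumours, each with groups that overlapped. Smc1a, the core SMC partner in body cells, ran from 8.66 through 8.90 to 9.08 in KR and from 8.80 through 9.22 to 9.69 in KHR tumours. Its difference was 0.33 ± 0.13 (SE). Smc3, the subunit of both forms, ran from 8.95 through 9.65 to 9.99 and from 9.20 through 9.88 to 10.16. Its difference was 0.28 ± 0.19. For both SMC genes the groups overlapped, with the lowest KHR array, KHR 1, inside the KR range.

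Rad21, the mitotic kleisin that separase cuts, ran from 9.11 through 9.38 to 9.69 in KR and from 9.33 through 9.62 to 9.97 in KHR tumours. Its difference was 0.26 ± 0.12 (SE), and 1 KHR array exceeded the highest KR array. Stag1 and Stag2 encode the 2 STAG subunits of body cells, of which STAG2 is often mutated in human cancers. Stag1 ran from 8.0 through 8.43 to 8.72 in KR and from 8.30 through 8.74 to 8.99 in KHR tumours, a difference of 0.30 ± 0.14. By the mean over its probesets Stag1 differed by 0.41 and passed the threshold, as no other mitotic member did. In that setting 973 of 23102 genes were called higher. Nothing is read from the call of Stag1, since the choice of members used the contrast. Stag2 ran from 8.90 through 9.05 to 9.47 and from 8.99 through 9.20 to 9.91, a difference of 0.14 ± 0.16. The groups overlapped for all 5 mitotic genes.

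Set side by side, the median difference was 0.28 over the 5 mitotic and 0.39 over the 4 meiotic members, against 0.00 over all genes. The median of the meiotic set lies between the values of Rec8 and Smc1b and describes neither. Without Stag3 it was 0.09. All 5 mitotic members and 3 of 4 meiotic members were above 0, as were 51.0% of all genes. By probesets, 110 of 133 mitotic ones and 63 of 85 meiotic ones were higher in KHR tumours. All KHR arrays lay above all KR arrays at 3 mitotic probesets (2.26%), 1 in Rad21 and 2 in Stag1, against 1.09% of all probesets with 1 symbol. The same held at 31 meiotic ones, of which 29 were in Stag3, and at 2 of 52 (3.85%) without that gene. Nothing is read from these counts, since the choice of members used the contrast. Per gene, the mitotic differences ran from 0.14 for Stag2 to 0.33 for Smc1a.

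**Figure D3:**
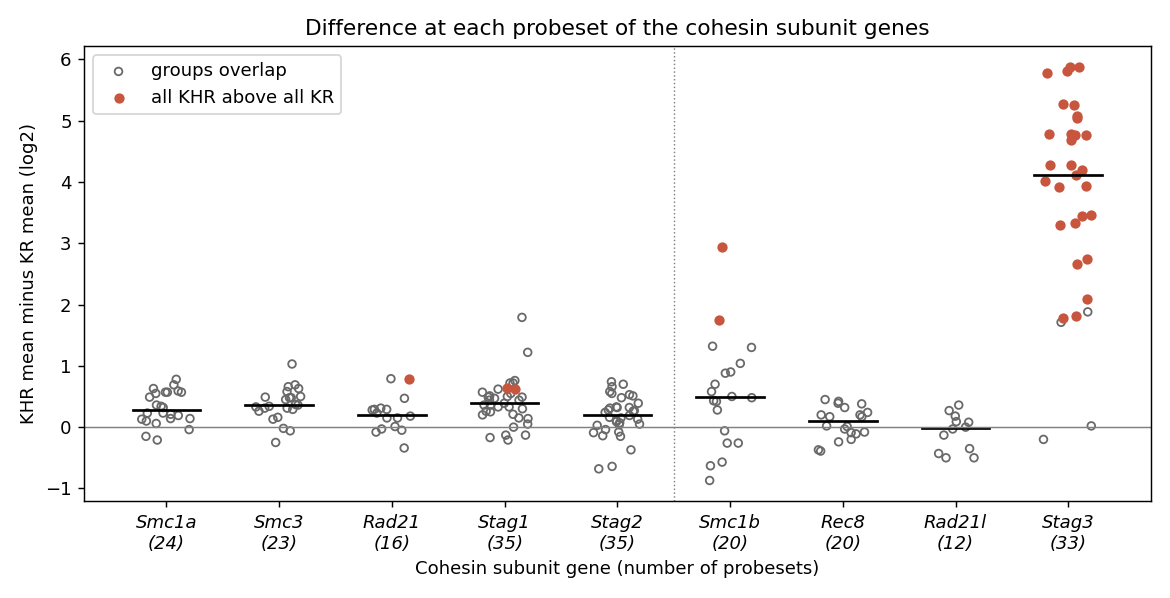
Difference of the group means (KHR minus KR, log2) at each probeset of the 9 genes, with the number of probesets below each name, the median as a black line, and filled points where all 6 KHR arrays lie above all 6 KR arrays. Stag3 has 29 filled points of 33 and a median of 4.11, while Smc1a, Smc3, Stag2 and both meiotic kleisins have none.

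Single arrays weighed on the mitotic genes. KHR 5 was the highest array for Smc1a, Smc3, Rad21 and Stag2, and also for Smc1b, and it had the highest level of skeletal muscle markers as well. The mean of 10 such markers was 7.74 on KHR 5 and between 5.31 and 6.96 on the other arrays, with group means of 6.01 ± 0.47 for KR and 6.48 ± 0.82 for KHR (SD, n = 6 each). None of the 10 passed the threshold, and Acta1, skeletal actin, differed by 0.37 ± 0.36 (SE). KHR 1 was the lowest KHR array for all 5 mitotic genes. Without KHR 5 the mitotic median was 0.21 and the difference of Stag2 was 0.01, and without KHR 1 the mitotic median was 0.38, while Stag3 stayed between 4.30 and 4.42 on leaving out any array. With the muscle mean as a covariate the mitotic median was 0.20 and Stag2 was at -0.00. Smc1a and Stag2 lie on the X chromosome, and Xist, the transcript of the inactive X, was above 11 on KR 4, KR 6 and KHR 3 to KHR 6 and below 5 on the other arrays. With Xist as a covariate the difference was 0.25 for Smc1a, 0.05 for Stag2 and 0.18 for the mitotic median. The autosomal Smc3 moved under that covariate too, to 0.13. In bulk tissue, a smaller share of a cell type and less RNA per cell cannot be told apart.

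Markers of dividing cells were higher in KHR tumours, beside the mitotic subunits. Of 9 measured markers of division, 6 rose and none fell, against 2.71% and 1.03% of all genes. The mean of the 9 went from 8.79 ± 0.13 to 9.42 ± 0.12 (SD, n = 6 each), with ranges of 8.62 to 8.94 and 9.30 to 9.61. Mki67, the common marker of proliferation, rose by 0.66 ± 0.13 (SE; adjusted p = 0.00998 in limma). Its part in the values of the mitotic subunits was not tested. Checked against the label of oral tumour, all 10 epithelial markers were above the median of all genes in both groups, and 1 of them, Krt13, fell. The epithelial list averaged 11.46 (SD 0.15) in KR and 11.22 (SD 0.26) in KHR, and the groups overlapped. Its median difference was -0.02. Krt13 changed by -1.26 ± 0.22 (SE; adjusted p = 0.00571 in limma). Krt4 changed by -1.74 ± 0.72 and Krt15 by 0.52 ± 0.34, neither past the threshold. Krt4 and Krt15 are named after their values were seen. Krt5 and Krt14 of the basal layer and the lineage factor Trp63 differed by -0.02 ± 0.09, 0.09 ± 0.09 and 0.16 ± 0.11, none past the threshold.

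Markers of germ cells were near the low end. The mean of 10 was 4.14 ± 0.08 for KR and 4.17 ± 0.12 for KHR (SD, n = 6 each), with ranges of 4.02 to 4.24 and 4.05 to 4.38, and none passed the threshold. No marker in KR and 1 in KHR, Sycp3, had a mean above the median level of all genes. Sycp3, of the synaptonemal complex that cohesin carries in meiosis, stood at 4.61 ± 0.23 and 5.06 ± 0.29 (adjusted p = 0.120 in limma). Dazl, a germ cell RNA-binding protein, differed by -0.14 ± 0.09 (SE). Ddx4, a germ cell helicase, ran from 3.83 to 4.28 in KR and from 4.00 to 6.38 in KHR tumours, with KHR 2 highest at 6.38 and KHR 1 next at 4.86. Stag3 stood at 9.09 on KHR 1, its highest array, and at 8.62 on KHR 2. The part of germ cells in the level of Stag3 was not tested.

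The factors that load cohesin, acetylate it, protect it, release it and cut it are not members, and they were tested. The same list of accessory genes holds 7 genes of cohesion at the replication fork, Wdhd1 and Tipin among them, and 2 of loop anchors. Their list too was drawn up with earlier results of these data known, so its count is not independent evidence of a direction. Of 25 accessory genes measured, 4 rose and none fell in KHR tumours, against 2.71% and 1.03% of all genes. Their median difference was 0.20, against 0.00 over all genes, and 22 of 25 were above 0. With the mean over probesets 10 of the 25 rose, and with median polish 9. In these settings the count over all 23102 genes grew too, to 973 and 792 higher from 625.

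Wdhd1, which encodes the AND-1 scaffold that links polymerase to helicase at the fork, rose most. It ran from 7.93 through 8.13 to 8.41 in KR and from 8.86 through 9.30 to 9.47 in KHR tumours, with no overlap. The change was 1.05 ± 0.12 (SE; adjusted p = 0.000484 in limma). Tipin, of the fork protection complex, ran from 7.45 through 7.89 to 8.05 and from 8.24 through 8.67 to 8.79, also with no overlap. It rose by 0.77 ± 0.13 (adjusted p = 0.00508). Both kept their call on leaving out any array and under each other setting tried.

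Pds5b, which helps both to hold cohesin on chromatin and to release it, rose by 0.48 ± 0.10 (SE; adjusted p = 0.0209 in limma), from 8.09 ± 0.12 to 8.57 ± 0.21 (SD, n = 6 each) with no overlap. Its call was lost without KHR 3 (adjusted p = 0.0505) or KHR 4 (adjusted p = 0.0532). Cdca5 encodes sororin, which guards acetylated cohesin against release, and rose by 0.45 ± 0.12 (adjusted p = 0.0483) from 5.78 ± 0.21 to 6.23 ± 0.19. Its groups overlapped, and it no longer passed once any of 10 single arrays was removed (highest adjusted p = 0.108) or after quantile normalization (0.35, adjusted p = 0.198). Cdca5 also failed with array medians subtracted, the replicate block, either covariate and other eBayes settings (adjusted p from 0.0791 to 0.131). It passed by the probeset mean, by median polish, and without dim genes or dim probesets. Haspin, the kinase that marks centromeres, and Esco2, the acetyltransferase of S phase, came next at 0.36 ± 0.10 (adjusted p = 0.0590) and 0.90 ± 0.27 (adjusted p = 0.0903). Esco2 passed without KHR 1 (adjusted p = 0.0124) and Haspin without KR 6 (adjusted p = 0.0464). Esco2 also passed without dim genes (adjusted p = 0.0498) and without dim probesets (adjusted p = 0.00403).

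By role, 2 of 7 fork genes and 2 of 4 genes of stabilization and release rose. None rose or fell among 2 loaders, 3 genes of acetylation and its removal, 5 of centromere protection, 2 of cleavage and 2 of loop anchors. This split depends on how probesets were summarised: by their mean and by median polish Esco2 of acetylation and Haspin and Sgo1 of centromere protection rose too, as did the fork genes Dscc1 and Timeless, and by their mean also Ddx11. The loader Nipbl differed by 0.16 ± 0.13, separase (Espl1) by 0.20 ± 0.17 and the loop anchor gene Ctcf by 0.02 ± 0.09 (SE). Germline genes of this list were low in both groups. Meikin, a protector of centromeric cohesin in meiosis, stood at 3.81 ± 0.22 and 3.77 ± 0.11, and Ctcfl, the testis paralogue of Ctcf, at 3.63 ± 0.10 and 3.56 ± 0.16 (SD, n = 6 each). Nipbl, Espl1, Ctcf, Meikin, Ctcfl, Sgo1, Dscc1, Timeless and Ddx11 are named after their values were seen.

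**Figure D4:**
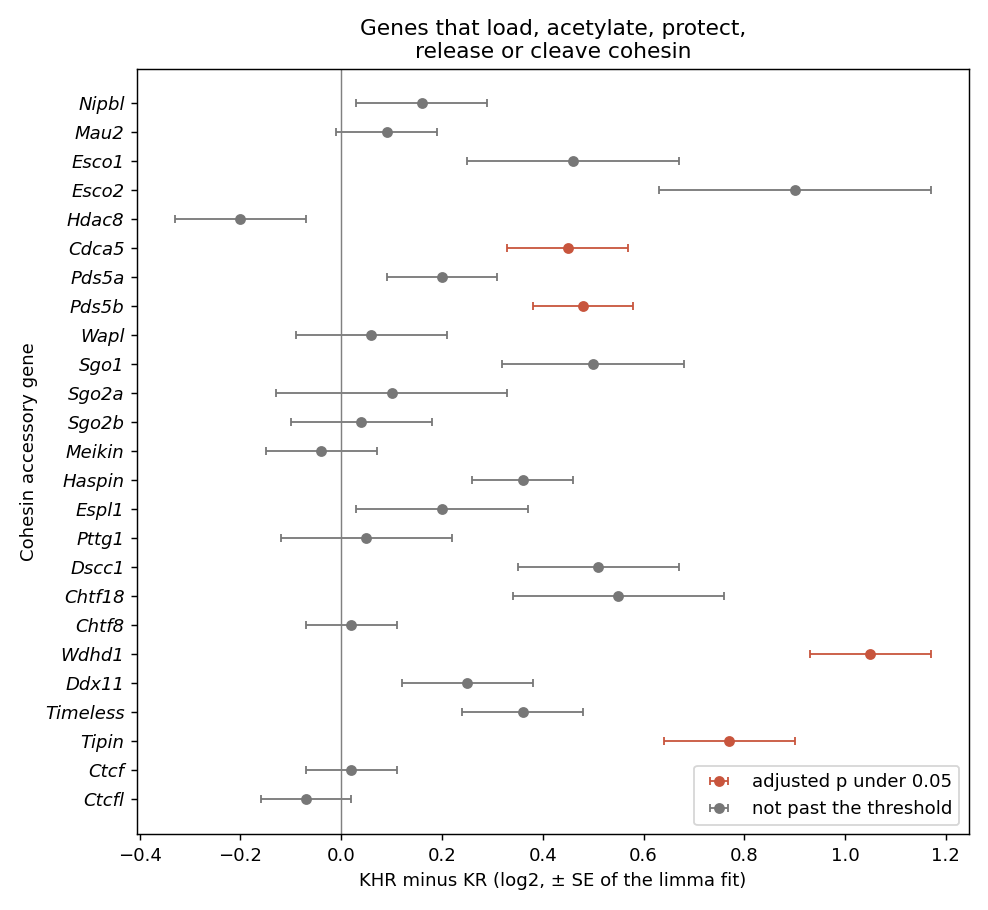
Difference of the group means (KHR minus KR, log2, with the SE of the limma fit) for 25 accessory genes, red where the adjusted p is under 0.05. They include 7 genes of the replication fork and 2 of loop anchors. Wdhd1 at 1.05, Tipin at 0.77, Pds5b at 0.48 and Cdca5 at 0.45 passed, and Hdac8, Meikin and Ctcfl lie below 0.

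The genes beside the members on the chromosome were tested to see whether a member's difference was shared by its surroundings. Of the 3 genes before and 3 after each member in the RefSeq table, 30 of 54 were measured, and 1 rose and 1 fell (2.71% and 1.03% of all genes). Their median difference was -0.04. The gene that rose was Gpc2, a glypican, next to Stag3. It ran from 5.11 through 5.35 to 5.53 in KR and from 5.77 through 6.18 to 6.86 in KHR tumours, with no overlap. Its change was 0.91 ± 0.16 (SE; adjusted p = 0.00510 in limma). In that table Gpc2 lies inside the span given for Stag3, on the opposite strand, and the listed starts of the genes are 572 bases apart. The start of Gpc2, on the minus strand, has the lower coordinate, and that of Stag3 is on the plus strand. Read from these starts the genes run away from each other, although the span given for Stag3 covers Gpc2. Signal from overlapping genes cannot be told apart where a probeset could read both. Of the other neighbours of Stag3, Gal3st4 and 6330418K02Rik were measured and differed by -0.14 ± 0.11 and -0.08 ± 0.14. The 5 measured neighbours of Smc1b differed by -0.14 to -0.01. The gene that fell was Tssk4, a testis kinase near Rec8, at -0.78 ± 0.20 (adjusted p = 0.0430), which no longer passed once any of 9 single arrays was removed (highest adjusted p = 0.0974). It was -0.20 by the mean over probesets (adjusted p = 0.309) and 0.04 without dim probesets (adjusted p = 0.928).

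The profile most like that of Stag3 over the 12 arrays was sought by the root mean square difference of log2 values centred on each gene's mean. The median over all other genes was 2.20, and the nearest were Ina at 0.56, Zcwpw1 at 0.60, Tdrd1 at 0.83, Ulbp1 at 0.84 and Atp12a at 1.03. Zcwpw1, which encodes a reader of histone marks at sites of meiotic recombination, is on chromosome 5 like Stag3, with 32 entries of the RefSeq table between them. Of the 23 measured among these, 2 rose and none fell (2.71% and 1.03% of all genes), with a median difference of 0.00. They were the replicative helicase gene Mcm7, at 1.07 ± 0.13 (SE; adjusted p = 0.000751 in limma), and Cops6, of the signalosome, at 0.53 ± 0.11 (adjusted p = 0.0140), both named after their values were seen. Zcwpw1 itself went from 4.70 ± 0.21 in KR to 8.01 ± 0.18 in KHR tumours (SD, n = 6 each), with no overlap. The other 4 profiles belong to genes on chromosomes 10, 14 and 19. Ina, a neuronal intermediate filament gene, went from 4.41 ± 0.33 to 7.91 ± 0.37, and Tdrd1, of the piRNA pathway of germ cells, to 7.34 ± 0.52 with a difference of 2.84 ± 0.21 (SE). Ulbp1, a stress ligand of immune receptors, went from 5.66 ± 0.34 to 8.55 ± 0.46, and the proton pump gene Atp12a from 5.90 ± 1.09 to 9.26 ± 0.66. All 5 had every KHR array above every KR array, and Atp12a varied most within the groups. For Smc1b, whose range is small, the nearest profiles were Usp1 at 0.16, Avil and Dnmt1 at 0.18, and Foxred2 and Nup54 at 0.19, against a median of 0.46. Usp1, a deubiquitinase of DNA repair, was higher in KHR tumours by 0.66 ± 0.10 (SE), Dnmt1, the maintenance DNA methyltransferase, by 0.54 ± 0.10 and Nup54, of the nuclear pore, by 0.57 ± 0.11. Avil and Foxred2, under the median of all genes in KR tumours at 4.33 ± 0.18 and 3.98 ± 0.05 (SD, n = 6), were higher by 0.93 ± 0.11 and 0.73 ± 0.09 (SE). Genes chosen for their likeness to Stag3 or Smc1b had to differ between the groups as these do, so no test is given for them.

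Of the PRC1.6 genes, Mga, its E-box binding subunit, rose by 0.71 ± 0.11 (SE; adjusted p = 0.00212 in limma). It ran from 8.23 through 8.65 to 8.77 in KR and from 9.01 through 9.34 to 9.40 in KHR tumours. E2f6, L3mbtl2 and Pcgf6 differed by 0.52 ± 0.14, 0.66 ± 0.18 and 0.44 ± 0.17 (adjusted p = 0.0576, 0.0644 and 0.218). In limma E2f6 passed by the probeset mean (adjusted p = 0.0155), median polish (0.0168), without dim genes (0.0410) and without KHR 1 (0.00197). It did not pass in the other settings, among them quantile normalization (0.0963) and without dim probesets (0.183). L3mbtl2 passed on leaving out 1 of the arrays (adjusted p = 0.0337). The part of these PRC1.6 genes in the levels of Stag3 and Smc1b was not tested.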

How the data were processed

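The values analysed were log2 intensities deposited by the authors, for 269751 probesets on each array. The only tool listed in the submitters' processing notes is Partek. Background correction, normalization and build: not given in the sources used here. That the values are log2 was read from their range. Array medians lay between 5.62 and 5.75, and no pair of arrays correlated above 0.97. The number of arrays limits the precision. Symbols came from GEO's platform annotation, updated through RefSeq synonyms (GRCm38.p6): 233753 probesets had 1 symbol, 5106 several and 30892 none. A gene's value was the median of its probesets with 1 symbol, with no filter on dim genes. Genes were tested in 1 fit over all genes with limma 3.58.1 (lmFit, eBayes, two-sided) in R 4.3.3, without covariates, and adjusted by Benjamini-Hochberg at 0.05. The script was checked on simulated data.

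The members and lists were chosen with earlier results of these data known. The rule for named genes took all members, accessory genes and neighbours past the threshold, the 2 next accessory genes, the 5 profiles most like Stag3 and Smc1b, and fixed marker and PRC1.6 genes. Others are said to be chosen later. Marker lists of white blood cells and fibroblasts were also read, and 0 of 5 and 1 of 5 measured genes passed, the latter Col1a2, lower by -0.80. Alternatives were other probeset summaries, scalings, filters and eBayes settings, the replicate number as a block, Xist and muscle covariates, and leaving out each array. Python 3.11.15 with matplotlib 3.10.9 drew the figures, and pandas 2.3.3 and numpy 2.4.6 made the tables.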

Additional observations from a re-analysis of the deposited data

Results flagged for a closer look

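Among 30 groups of 6 arrays, for the 9 members and the accessory and neighbouring genes past the threshold, 3 held an array far from the others, where chance gives about 1 in 20. Stag2 was 9.91 on KHR 5, with the other KHR arrays between 8.99 and 9.33. Rad21l was 4.05 on KHR 4, with the others between 3.35 and 3.60. Stag3 was 4.58 on KR 4, with the other KR arrays between 4.24 and 4.37.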

How the results depend on the processing

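The count of genes past the threshold, 863, was 1445 with the mean over probesets, 1215 with median polish and 555 with the Xist covariate. Leaving out each array gave 523 to 1085, the low counts without KR 2 (531) and KHR 4 (523). The 4 accessory genes were 10 by the probeset mean, 9 by median polish and 2 to 4 on leaving out arrays, with 2 without KHR 3. With dim genes left out they were 5, and with dim probesets left out 6, of 21 tested in each. Wdhd1 and Tipin were among them each time. The 2 neighbours past the threshold were 1 with the Xist covariate, 1 with the replicate number as a block, and 1 to 2 on leaving out arrays. Gpc2 passed each time. Arrays share only a number between groups: the correlation of deviations for equal numbers ran from -0.003 to 0.234, and the block gave 925 genes and 3 accessory genes. For Stag3 the mean over probesets gave 3.77 and median polish 4.13, and for Smc1b median polish gave 0.39. The meiotic median was 0.22 with median polish and 0.90 over 3 members with dim probesets left out. Of these 3, only Stag3 passed the threshold in that setting. The mitotic median stayed between 0.18 and 0.38 in all settings run, and Stag1 passed the threshold by the probeset mean. Nothing is read from that call, since the choice of members used the contrast. For the low meiotic genes signal over background limits what can be said. The cause was not tested for any of these.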
